A study of Homo sapiens with 20 samples.

Results

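The S100 calcium-binding proteins are described here in MDA-MB-468 cells treated with EGF. The 10 members were chosen by gene symbol: S100A2, S100A4, S100A6, S100A7, S100A8, S100A9, S100A10, S100A11, S100A14 and S100A16, out of the 60271 genes in the count table. All 10 passed the filter on low counts. MDA-MB-468 is a human triple negative breast cancer line with high EGFR, the receptor of epidermal growth factor (EGF). Bulk RNA-seq was performed on 20 libraries, with 4 biological replicates in each of 5 groups. The untreated control (CTR) received no EGF, and the other groups had EGF at 50 ng/mL in the medium over the last 12, 24, 48 or 72 h. The protocol gives 24 h of serum starvation before the start of EGF-treatment. By the labels the groups were run in parallel, with EGF added at different times. Serum-free time before EGF was therefore not necessarily equal between groups. All results come from a single cell line, with no genetic change between groups. The purpose of the series was to follow cells through the epithelial-mesenchymal transition (EMT) that EGF induces.

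S100 proteins are small EF-hand proteins that mostly work as dimers. Binding of calcium opens a surface through which they attach to target proteins, among them annexins and cytoskeletal proteins. S100A10 is an exception, as it holds the open shape without calcium. Some members are also released from cells, and S100A7, S100A8 and S100A9 are known from inflamed and squamous epithelium. Most S100 genes lie side by side in chromosome band 1q21, within the epidermal differentiation complex.

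The libraries held 15611961 to 25856953 counts. The share of counts from mitochondrial genes ranged from 9.41% ± 1.68 (SD, n = 4) after 12 h to 15.04% ± 1.88 (SD, n = 4) after 72 h, and its part in the results below was not tested. The epithelial identity of the line was visible in every library. The summed level of EGFR, EPCAM, CDH1, KRT7, KRT8, KRT18 and KRT19 was between 4978 and 19710 counts per 1000000 (CPM). That sum changed under EGF, from 4978 to 5496 CPM in CTR to 18910 to 19710 after 12 h and 7103 to 7897 after 48 h. The single markers did not all follow the sum. Of the 7, 7 were higher and 0 lower than CTR after 12 h, and 5 and 1 after 24 h. After 48 h 1 was higher and 2 lower, and after 72 h 4 and 2. Of all tested genes, 32.9% were higher and 36.5% lower after 12 h, and 29.2% and 29.6% after 24 h. The shares were 24.0% and 21.8% after 48 h, and 30.6% and 31.0% after 72 h. PGR was at 0 in all 20 libraries, and ESR1 averaged between 2.33 and 5.76 CPM over the groups. Among the myeloid markers, which matter because S100A8 and S100A9 are best known from neutrophils and monocytes, AIF1 had no count in any library, PTPRC had at most 8 counts in a library, and FCGR3A, CD163 and MPO averaged at most 0.0442 CPM in any group. Summed levels of the 9 myeloid markers were 4.70 to 7.95 CPM in CTR and 3.23 to 11.4 CPM in EGF-treated libraries, and most of that came from CD14 and CSF3R. Of these markers 4 were tested, and after 48 and 72 h 3 of them were higher and 1 lower than CTR, where 24.0% and 30.6% of all tested genes were higher and 21.8% and 31.0% lower. Summed fibroblast markers were between 5.12 and 14.99 CPM and mostly COL1A1, and summed endothelial markers between 1.44 and 6.07 CPM.

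The sequences just before the start sites are shown for the 6 members whose upstream 250 bases held 1 of 4 searched motifs, since these members include those that rose together and those that fell together. The windows come from RefSeq (GRCh38.p14), which had start sites for all 10 members and 14 start sites in all. Searches covered both strands for the TATA box (TATAAA), the AP-1 motif (TGANTCA), the C/EBP motif (TTGCNNAA) and the STAT motif (TTCNNNGAA). Capitals mark the motif, and all runs read 5′ to 3′ on the strand of the gene.
S100A9, chr1:153357813-153357842, plus strand, TATA box at base -29: tcaggagctgccTATAAAtgccgagcctgc
S100A8, chr1:153391085-153391114, minus strand, TATA box at base -29: aagcctaaccgcTATAAAaaggagctgcct
S100A7, chr1:153460662-153460691, minus strand, TATA box at base -28: caggctgagcctTATAAAggactgctcttt
S100A4, chr1:153545820-153545849, minus strand, TATA box at base -31: gcctggctggggTATAAAtaggtcagacct
S100A2, chr1:153565878-153565907, minus strand, AP-1 motif at base -52: ggagtgggctgTGACTCAcaggcatgtcat
S100A11, chr1:152037019-152037048, minus strand, C/EBP motif at base -33: ctgagtaaggcTTGGGCAAggctgggccgg
All of S100A9's 250 upstream bases lie outside the exons of its own gene, while 21 to 115 of those of the other 5 lie in exons of longer transcripts of the same gene. S100A8 has 3 start sites in RefSeq, and the position given counts from the second. The 3 secreted alarmins and S100A4 thus shared the exact letters TATAAA 28 to 31 bases before a start site. A TATAAA run occurred anywhere in the 250 bases of 10.7% of 35116 RefSeq promoters, an AP-1 match in 6.57% and a C/EBP match in 9.05%. No window held the STAT motif, which occurred in 6.57% of promoters. For S100A6, S100A10, S100A14 and S100A16 these letters were not in the windows searched. Only exact letters were counted, and the windows of S100A6 and S100A14 hold TATAAG, which differs from TATAAA in the last letter. The windows of S100A6 and S100A10 lay entirely in exons of their own genes (250 of 250 bases), so they show no sequence before the first exon, while 30 bases of that of S100A14 and at most 8 of those of S100A16 did.

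EGF-treatment raised most S100 transcripts within 12 h, and S100A8 was below CTR at all 4 times. After 12 h, 8 of the 10 members were higher than CTR and 1 was lower (edgeR quasi-likelihood test, Benjamini-Hochberg adjusted p under 0.05 over 16522 genes). The response of the whole transcriptome was broad, with 32.9% of tested genes higher and 36.5% lower at that time. After 24 h, 8 members were higher and 2 lower, against 29.2% and 29.6% of all genes. Fewer members were higher at later times, as 5 were higher and 3 lower after 48 h, against 24.0% and 21.8% of all genes, and 5 were higher and 3 lower after 72 h, against 30.6% and 31.0%. The median log2 fold change of the members was 1.09, 0.71, 0.22 and 0.33 after 12, 24, 48 and 72 h, while that of all genes lay between -0.05 and 0.01. These comparisons share the same 4 CTR libraries. In bulk RNA, fewer cells of a type and less RNA per cell cannot be told apart. Scaling by library size alone moved the whole-transcriptome split, as 30.2% of called genes were higher after 12 h and 36.3% after 24 h, compared with 47.4% and 49.6% under the trimmed mean of M-values (TMM) scaling used here.

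**Figure D1:**
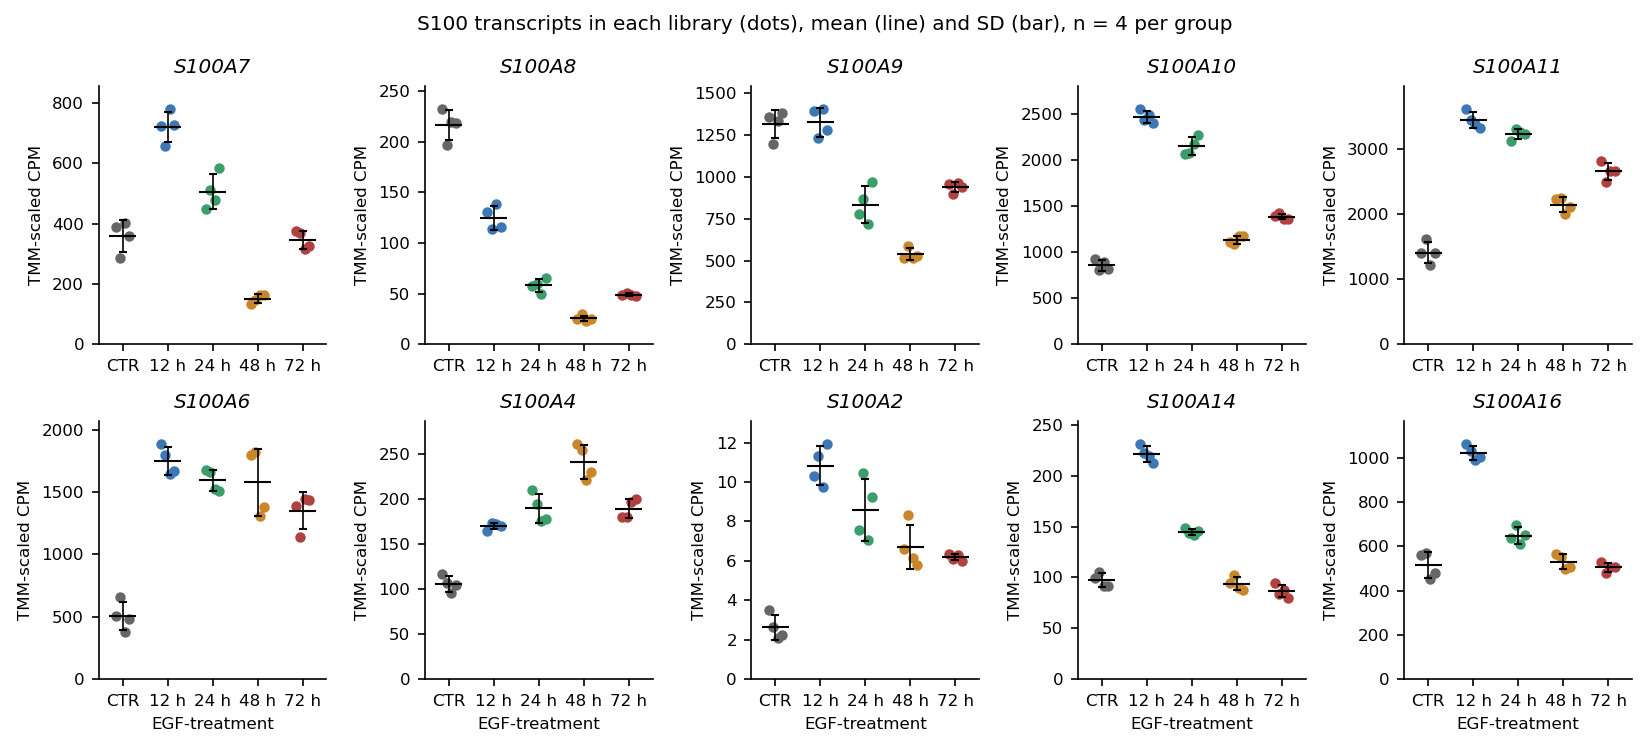
TMM-scaled CPM (vertical axes, linear from 0) of the 10 S100 members in CTR and in the 4 EGF groups, with a dot for each library, a line for the mean and a bar for the SD of 4 libraries. S100A8 and S100A9 were lowest after 48 h, S100A4 was highest after 48 h, and S100A14 and S100A16 stood clear of CTR at 12 and 24 h only.

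The members together took 0.577% ± 0.0297 (SD, n = 4) of all counts in CTR. Their share was 0.989% ± 0.0207 after 12 h and 0.908% ± 0.0154 after 24 h. It was 0.695% ± 0.0399 after 48 h and 0.763% ± 0.0336 after 72 h, so every EGF group lay above CTR by more than the spread between replicates.

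S100A8 fell furthest of the members. With S100A9 it forms calprotectin, a secreted complex that binds zinc and manganese and is a signal of inflammation. In CTR, S100A8 measured 232, 197, 220 and 218 CPM. After 12 h it measured 131, 113, 138 and 116 CPM, and after 24 h 57.8, 60.0, 49.4 and 65.2 CPM. The lowest point came after 48 h, at 24.9, 29.6, 23.0 and 24.7 CPM, before a partial return to 48.2, 50.9, 48.9 and 47.6 CPM after 72 h. No EGF-treated library reached the lowest CTR library. The level in CTR was 8.49-fold that at 48 h, a log2 fold change of -3.09 ± 0.0928 (SE, adjusted p = 4.2e-18, edgeR). At 12, 24 and 72 h the log2 fold changes were -0.80, -1.90 and -2.15, each past the threshold. From 48 to 72 h the transcript rose again by 0.94 on the log2 scale (SE 0.0901, adjusted p = 2.27e-08, edgeR).

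S100A9 followed S100A8 with a delay and a smaller amplitude. Its CTR libraries held 1357, 1198, 1335 and 1382 CPM, and the 12 h libraries held 1397, 1231, 1404 and 1279 CPM. These groups overlapped, and the log2 difference was 0.01 with a 95% confidence interval of -0.15 to 0.17. Scaling by library size alone turned this difference to -0.28 (adjusted p = 0.00144, edgeR), a setting under which the median of all genes was -0.34 instead of -0.05. After 24 h S100A9 had fallen to 778, 870, 722 and 972 CPM, and after 48 h to 514, 590, 515 and 529 CPM. The 72 h libraries stood higher, at 961, 898, 963 and 942 CPM, still below each CTR library. The log2 fold change against CTR was -0.66 at 24 h, -1.30 at 48 h and -0.49 at 72 h, and all were past the threshold (adjusted p = 9.88e-08, 1.91e-12 and 7.23e-06, edgeR).

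The unequal fall changed the proportion of the calprotectin transcripts. CTR libraries had 16.5 ± 0.532 (SD, n = 4) S100A8 counts for every 100 S100A9 counts. There were 9.36 ± 0.342 after 12 h, 6.97 ± 0.316 after 24 h, 4.75 ± 0.235 after 48 h and 5.20 ± 0.307 after 72 h. None of the 16 EGF-treated libraries overlapped the range of CTR, 15.8 to 17.1. This ratio does not depend on scaling between libraries. It was not scaled by length (1006 merged exon bases for S100A8 and 577 for S100A9), so it is not a ratio of molecules. An exact two-sided permutation test of the log2 ratio gave p = 0.0286 at each time, the smallest value that 4 against 4 libraries allow, and 0.0286 after Benjamini-Hochberg adjustment over 4 times. The ratio was chosen for testing after its values had been seen.

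**Figure D2:**
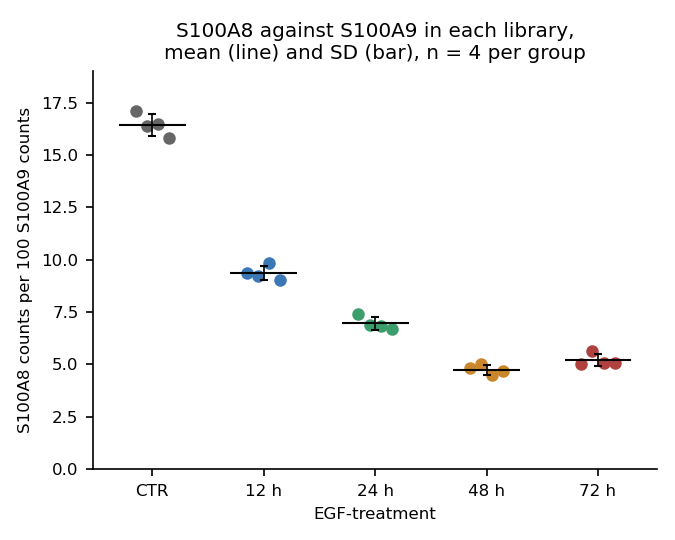
S100A8 counts per 100 S100A9 counts (vertical axis, linear from 0) in each library of CTR and the 4 EGF groups, with the mean as a line and the SD as a bar. The 4 CTR libraries lie between 15.8 and 17.1 and the EGF-treated libraries between 4.47 and 9.84.

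S100A7, psoriasin, is an antimicrobial protein of squamous epithelium and passed the test in both directions, higher than CTR early and lower at 48 h. CTR libraries measured 388, 286, 403 and 360 CPM. The level was higher after 12 h, at 722, 655, 778 and 726 CPM, and again higher than CTR after 24 h, at 448, 511, 478 and 584 CPM. After 48 h it had dropped below CTR, to 132, 146, 164 and 164 CPM. At 72 h it was back in the range of CTR, with 374, 367, 316 and 325 CPM. The log2 fold changes were 1.00 ± 0.0987 at 12 h, 0.49 ± 0.0981 at 24 h and -1.25 ± 0.0999 at 48 h (SE, adjusted p = 3.41e-09, 1.47e-04 and 3.63e-10, edgeR). The difference at 72 h was -0.06 with a 95% confidence interval of -0.26 to 0.15. S100A7 has a near-identical neighbour, S100A7A, and how reads shared between them were assigned is not given in the sources used here. S100A7A went from 84.8 ± 12.7 CPM in CTR to 96.9 ± 5.92 after 12 h, 61.4 ± 13.9 after 24 h, 22.0 ± 2.28 after 48 h and 48.2 ± 5.05 after 72 h (SD, n = 4). It was lower than CTR at 24, 48 and 72 h and did not pass the test at 12 h (adjusted p = 0.174, edgeR).

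S100A10 and S100A11, which bind annexins at membranes, rose at all 4 times. S100A10 pairs with annexin A2 in a complex that binds plasminogen at the cell surface and the scaffold protein AHNAK beneath it. In CTR it measured 925, 804, 897 and 816 CPM, and after 12 h 2553, 2442, 2488 and 2410 CPM. After 24 h it was at 2067, 2082, 2176 and 2278 CPM, and it came nearer to CTR after 48 h, at 1113, 1088, 1173 and 1178 CPM. After 72 h it measured 1399, 1424, 1366 and 1365 CPM. None of the EGF-treated libraries fell into the range of CTR. The log2 fold changes against CTR were 1.52, 1.32, 0.40 and 0.69, with the largest adjusted p at 48 h (1.62e-06, edgeR).

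S100A11, a partner of annexin A1, was the most abundant member by CPM. Its level was 1403, 1620, 1221 and 1401 CPM in CTR and 3614, 3446, 3397 and 3328 CPM after 12 h. After 24 h it was 3124, 3321, 3267 and 3238 CPM, after 48 h 2234, 2259, 2002 and 2109 CPM, and after 72 h 2820, 2499, 2661 and 2660 CPM. All EGF-treated libraries lay above all CTR libraries. The log2 fold changes were 1.29, 1.20, 0.61 and 0.91 (adjusted p at most 7.29e-08, edgeR).

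The annexin partner of S100A10 had its highest and lowest levels under EGF at the same times. ANXA2 went from 1035 ± 102 CPM in CTR to 5089 ± 53.5 after 12 h, 4214 ± 240 after 24 h, 1701 ± 63.8 after 48 h and 2169 ± 48.8 after 72 h (SD, n = 4). Its log2 fold changes were 2.30, 2.03, 0.72 and 1.07. ANXA1 was up by 2.21, 2.02, 1.20 and 2.17 on the log2 scale, and ANXA3 by 1.90, 2.15, 1.35 and 1.92. ANXA9 went the other way, with -1.38, -2.37, -0.37 and -1.40. Of the 13 annexin genes listed, 11 were tested, of which 5 were higher and 4 lower after 12 h, 5 and 5 after 24 h, 4 and 6 after 48 h, and 4 and 5 after 72 h. Among all tested genes, 32.9% were higher and 36.5% lower after 12 h, 29.2% and 29.6% after 24 h, 24.0% and 21.8% after 48 h, and 30.6% and 31.0% after 72 h. The median of the list was between -0.19 and 0.11 on the log2 scale. AHNAK was up by 1.25 after 12 h and 0.98 after 24 h, while its differences of 0.17 and 0.08 at 48 and 72 h did not pass the test (adjusted p = 0.36 and 0.633, edgeR).

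**Figure D3:**
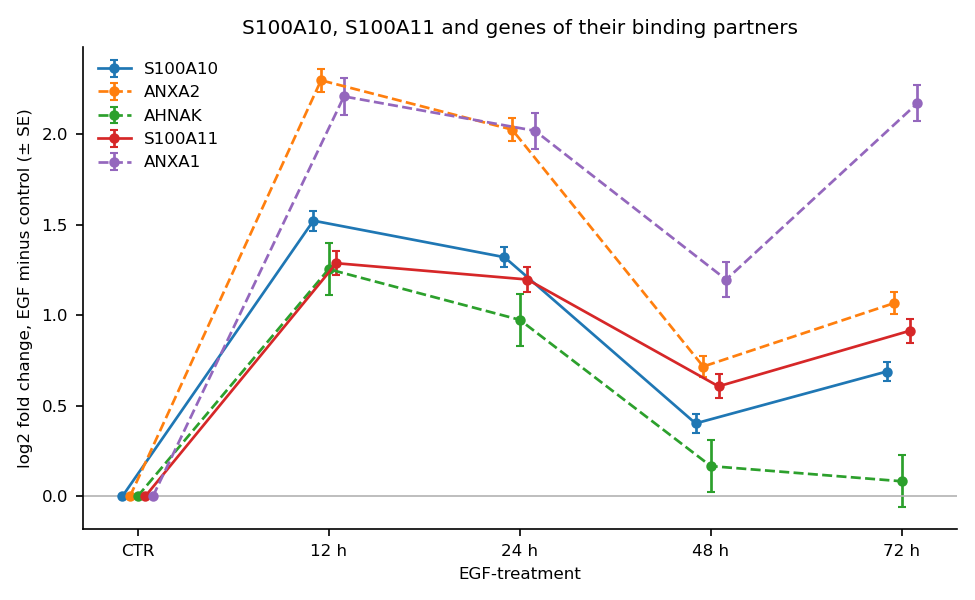
Log2 fold change against CTR (vertical axis) with its SE for S100A10, S100A11 (solid lines), ANXA2, AHNAK and ANXA1 (dashed lines) in the 4 EGF groups, with CTR set to 0. ANXA2 had a larger log2 fold change than S100A10 at each time, 2.30 against 1.52 after 12 h and 0.72 against 0.40 after 48 h.

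S100A6, S100A4 and S100A2 were raised at every time, and S100A4 differed from the rest by peaking late. S100A6, calcyclin, binds the ubiquitin ligase partner CACYBP. It rose from 508, 657, 380 and 480 CPM in CTR to 1882, 1798, 1645 and 1668 CPM after 12 h. Later levels were 1674, 1659, 1527 and 1510 CPM after 24 h, 1799, 1822, 1308 and 1382 CPM after 48 h, and 1391, 1135, 1443 and 1433 CPM after 72 h. The lowest EGF-treated library, at 1135 CPM, lay above the highest CTR library. Log2 fold changes against CTR were 1.79, 1.65, 1.64 and 1.42 (adjusted p at most 7.06e-09, edgeR). No step from one time to the next passed the test for S100A6. The intervals of these steps were -0.40 to 0.13, -0.28 to 0.25 and -0.49 to 0.04 on the log2 scale.

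S100A4, known as metastasin and as a binder of non-muscle myosin IIA, measured 117, 107, 95.3 and 104 CPM in CTR. It climbed to 165, 174, 172 and 170 CPM after 12 h, 211, 194, 176 and 178 CPM after 24 h, and 261, 254, 221 and 230 CPM after 48 h. After 72 h it was 180, 181, 197 and 200 CPM. The groups with EGF all lay above CTR. The largest difference was at 48 h, with a log2 fold change of 1.19 ± 0.0736 (SE, adjusted p = 3.52e-12, edgeR), compared with 0.68, 0.84 and 0.84 at 12, 24 and 72 h. The 48 h level exceeded that at 24 h by 0.35 and was above that at 72 h by the same amount, since 72 h minus 48 h was -0.35 (adjusted p = 3.55e-04 and 5.42e-04, edgeR). MYH9, which encodes the heavy chain of non-muscle myosin IIA, was up by 1.44 on the log2 scale after 12 h and 0.23 after 24 h, and its differences of -0.08 and 0.02 later did not pass the test (adjusted p = 0.409 and 0.85, edgeR).

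S100A2, a mainly nuclear member, was the least abundant and had the largest early increase. Its libraries held 47 to 70 counts each in CTR, or 3.52, 2.65, 2.09 and 2.26 CPM. After 12 h the values were 10.3, 11.3, 9.72 and 11.9 CPM, and after 24 h 7.56, 10.4, 7.05 and 9.23 CPM. Later values were 6.59, 8.31, 6.15 and 5.80 CPM after 48 h and 6.32, 6.09, 6.31 and 6.003 CPM after 72 h. Each EGF-treated library was above each CTR library. The log2 fold changes were 2.05 ± 0.154, 1.71 ± 0.156, 1.35 ± 0.157 and 1.24 ± 0.159 (SE, adjusted p at most 3.72e-07, edgeR).

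S100A14 and S100A16, neighbouring genes of epithelial cells, had a short increase. S100A14 stood at 99.8, 106, 91.8 and 91.6 CPM in CTR and at 231, 222, 219 and 212 CPM after 12 h. After 24 h it was 148, 144, 142 and 145 CPM, and after 48 h it had come back to 94.7, 102, 90.1 and 87.9 CPM. The 72 h libraries measured 94.4, 83.3, 88.1 and 80.2 CPM and overlapped with CTR. The log2 fold changes were 1.19 and 0.58 at 12 and 24 h (adjusted p = 1.31e-13 and 6.73e-08, edgeR). At 48 h the difference was -0.05 with a 95% confidence interval of -0.19 to 0.08. At 72 h it was -0.17 (adjusted p = 0.0306, edgeR), a call that was lost when any 1 of CTR replicates 1 and 2 or EGF 72 h replicates 2 and 4 was left out (-0.16, -0.13, -0.15 and -0.13, in that order).

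S100A16 measured 560, 570, 451 and 481 CPM in CTR and 1061, 1030, 992 and 1004 CPM after 12 h. After 24 h it was 636, 699, 611 and 651 CPM, above every CTR library. The values of 565, 552, 497 and 505 CPM after 48 h and 528, 480, 507 and 508 CPM after 72 h lay among those of CTR. Its log2 fold changes were 0.99 and 0.33 at 12 and 24 h (adjusted p = 1.08e-11 and 2.51e-04, edgeR). The later differences of 0.04 and -0.03 had 95% confidence intervals of -0.10 to 0.18 and -0.17 to 0.12.

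Successive times were compared to follow the course under EGF, and most members were lower at 24 than at 12 h. From 12 to 24 h, 7 of 10 members fell and none rose, where 25.9% of all genes fell and 27.9% rose. At an unadjusted p under 0.05, 1 member, S100A4, counted as higher (edgeR), and DESeq2 called 0. It gained the call under other scalings, given in the closing section. From 24 to 48 h, 8 members fell and 1, S100A4, rose, against 24.3% and 25.9% of all genes. The step from 48 to 72 h went the other way, as 5 members rose and 1, again S100A4, fell, against 17.9% and 17.9% of all genes. The members that rose in this last step were S100A7, S100A8, S100A9, S100A10 and S100A11, which had all fallen in the step before. Over longer spans, 9 members differed between 12 and 48 h, where 70.3% of all genes did. Between 12 and 72 h 9 members differed, against 67.6%, and between 24 and 72 h 7 differed, against 40.2%. For S100A2 the declines from 12 to 24 h (-0.33) and from 24 to 48 h (-0.36) were close to the threshold, with adjusted p = 0.0473 and 0.0412 (edgeR). The first lost its call without any 1 of EGF 12 h replicates 1, 2 and 4, EGF 24 h replicates 1 and 3, EGF 48 h replicate 1 and EGF 72 h replicates 2, 3 and 4, and the values with a library left out ran from -0.44 to -0.26. The second lost its call without any 1 of EGF 24 h replicates 2 and 4, EGF 48 h replicates 1, 3 and 4 and EGF 72 h replicate 1, and the values ran from -0.48 to -0.25.

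Levels of different members were compared per kilobase of merged exons. In CTR the order was S100A9 (2284 ± 143 CPM per kb), S100A11 (2075 ± 240), S100A7 (670 ± 97.0), S100A10 (558 ± 38.7), S100A6 (521 ± 118), S100A16 (303 ± 34.3), S100A8 (215.5 ± 14.5), S100A4 (103 ± 8.62), S100A14 (76.2 ± 5.40) and S100A2 (1.68 ± 0.406; SD, n = 4). S100A9 and S100A11 overlapped in CTR, as did S100A7, S100A10 and S100A6 with each other. S100A11 headed the order in all 4 EGF groups, with 5068 ± 179 CPM per kb after 12 h and no overlap with the next member. S100A2 was last in all 5 groups. S100A6 moved from rank 5 in CTR to rank 3 after 12 and 72 h and rank 2 after 24 and 48 h. S100A8 moved from rank 7 to rank 9 in every EGF group. S100A7 fell to rank 6 after 48 h, where its libraries overlapped with those of S100A16 and S100A4. The other overlaps were between S100A14 and S100A4 after 12 h, and of S100A9 with S100A6 and with S100A10 after 24 h. These ranks depend on the length used, since 33 of the 50 ranks were the same when the longest transcript replaced the merged exons.

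**Figure D4:**
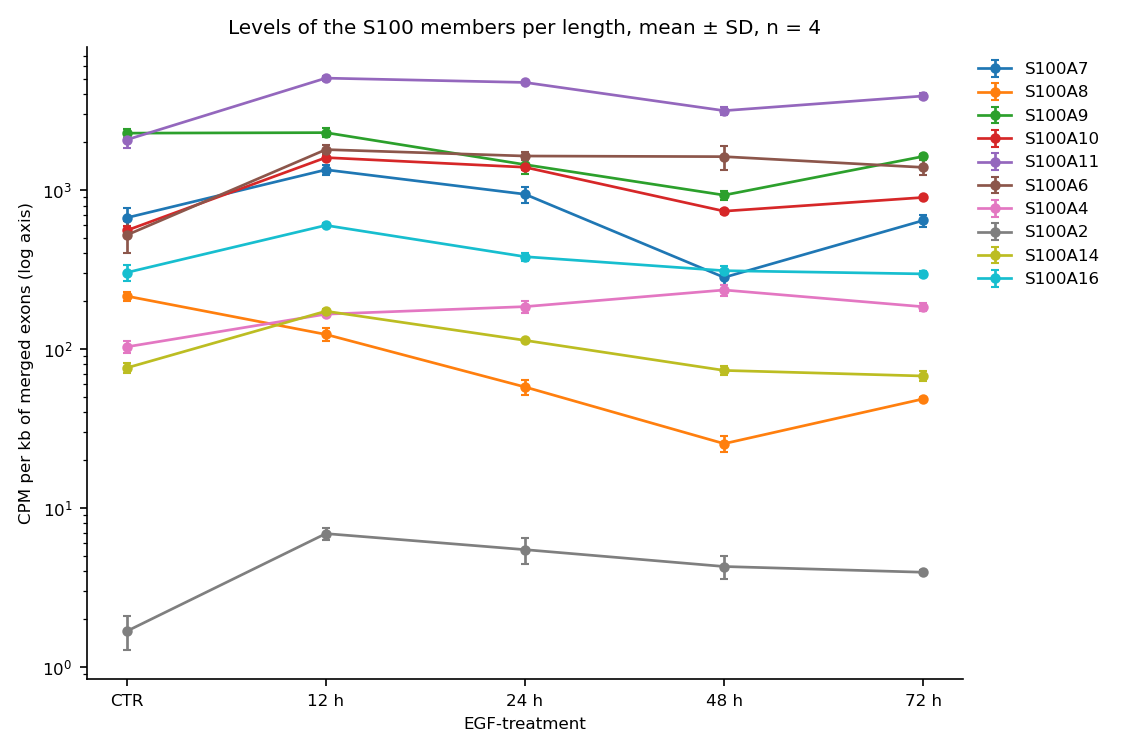
Mean level per kilobase of merged exons (vertical axis, logarithmic) of the 10 members in CTR and the 4 EGF groups, with SD bars of 4 libraries. S100A11 reached 5068 CPM per kb after 12 h, and S100A8 crossed below S100A4 and S100A14 between CTR and 12 h.

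All members lie on chromosome 1, and their responses are given here by position. In GENCODE 29 coordinates (GRCh38), S100A10 (151982915 to 151994390) and S100A11 (152032506 to 152047907) lie apart from the other members and rose at all times. S100A9 (153357854 to 153361027), S100A8 (153390032 to 153391188) and S100A7 (153457744 to 153460701) follow, and these were the members that fell below CTR at 48 h. Next come S100A6 (153534599 to 153536244), S100A4 (153543613 to 153550136) and S100A2 (153561108 to 153567890), which were higher than CTR at all times. S100A16 (153606886 to 153613145) and S100A14 (153614255 to 153616986) are last and had the short increase. S100A6 shares 2.37% of its exon bases with BX470102.1 on the opposite strand, and no other member shared exon bases with another gene.

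Some S100 genes outside the member list lie among the members or beyond the last of them on chromosome 1. S100A5 and S100A3 lie among S100A6, S100A4 and S100A2. S100A5, known from olfactory neurons, averaged at most 1.76 CPM and was higher at all 4 times, with log2 fold changes of 0.93, 1.65, 2.25 and 1.91. S100A3, a hair cuticle protein, was up by 1.84 at 12 h and 1.19 at 24 h, and its differences of 0.16 and -0.30 afterwards did not pass the test (adjusted p = 0.553 and 0.235, edgeR). S100A13 was lower than CTR at all times, by -0.27 to -0.54, and S100A1 did not pass the test at any time.

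**Figure D5:**
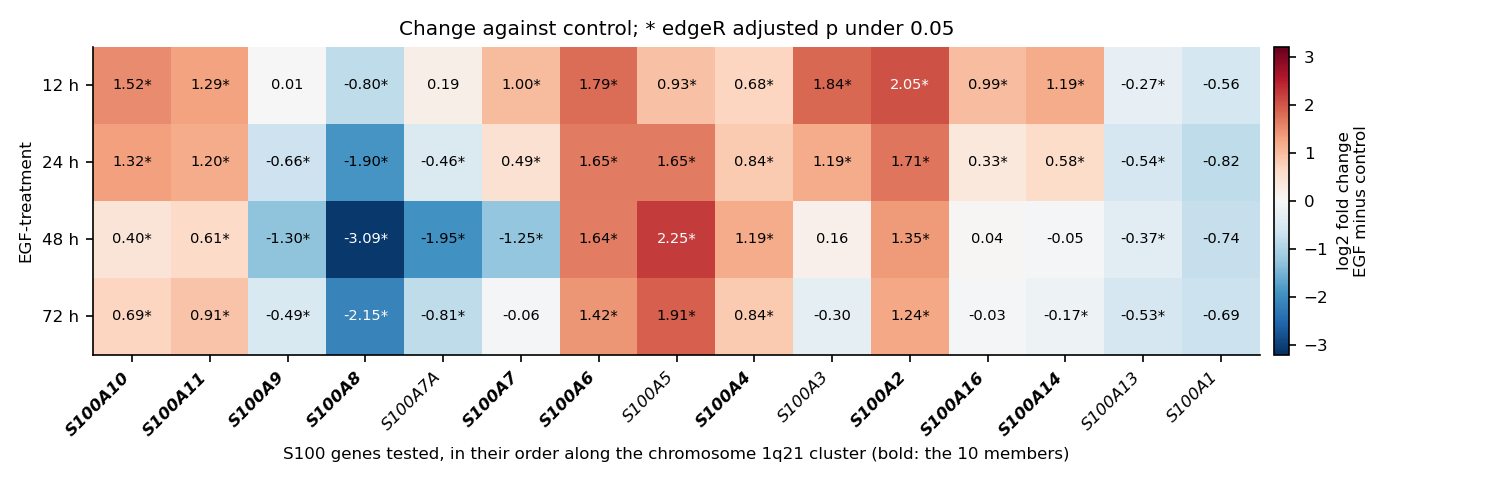
Log2 fold change against CTR (colour and printed value, red for higher and blue for lower) of the 15 tested S100 genes of chromosome 1q21, in their order along the chromosome, with a row for each EGF group. S100A9, S100A8, S100A7A and S100A7 form a run of blue cells at 48 h, from -1.25 to -3.09, and S100A6 to S100A4 a run of red cells, from 1.19 to 2.25.

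S100P, which lies on chromosome 4 and is known from placenta and carcinomas, had the largest change of any S100 gene tested. It averaged 28.0 ± 4.72 CPM in CTR, 341 ± 17.2 after 12 h, 495 ± 41.0 after 24 h, 472 ± 12.7 after 48 h and 1131 ± 70.1 after 72 h (SD, n = 4). Its log2 fold change at 72 h was 5.34 ± 0.101 (SE, adjusted p = 4.28e-22, edgeR). Of the 11 S100 genes outside the member list, 6 were tested, of which 3 were higher and 1 lower at 12 h, 3 and 2 at 24 h, 2 and 2 at 48 h, and 2 and 2 at 72 h, where 32.9% and 36.5%, 29.2% and 29.6%, 24.0% and 21.8%, and 30.6% and 31.0% of all tested genes were. S100A7L2 and S100B had no count in any library, and S100A12, S100G and S100Z had at most 16 counts in a library.

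The fused S100 proteins of the epidermis, encoded in the same complex, were mostly silent, as FLG, HRNR and CRNN had no count. TCHH, trichohyalin, was lower than CTR at 12 h (-0.91) and higher at 48 h (0.68) and 72 h (1.33). TCHHL1 was lower at 12 and 24 h (-1.24 and -1.55) and higher at 48 and 72 h (1.60 and 1.36), at mean levels of at most 2.07 CPM. Squamous differentiation markers had a summed level of 77.2 to 101 CPM in CTR and 515 to 574 CPM after 72 h. The small proline-rich genes led this, with log2 fold changes at 72 h of 8.50 for SPRR3, 7.71 for SPRR1B and 7.56 for SPRR2A, and KRT13 was up by 4.82 at 12 h. Of the 12 markers, 9 were tested, of which 4 were higher and 1 lower at 12 h, 5 and 3 at 24 h, 4 and 2 at 48 h, and 5 and 3 at 72 h, against 32.9% and 36.5%, 29.2% and 29.6%, 24.0% and 21.8%, and 30.6% and 31.0% of all tested genes. LORICRIN had no count. Whether these markers and the S100 transcripts came from the same cells was not tested.

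The receptors through which released S100 proteins signal differed widely in level. TLR4, a receptor of calprotectin, had at most 1 count in any library, and AGER, the receptor RAGE, averaged at most 1.12 CPM. BSG, ALCAM and NPTN, other known receptors of S100 proteins, averaged 147 to 209 CPM, 169 to 230 CPM and 76.6 to 99.5 CPM over the groups. ALCAM was higher than CTR at all 4 times, with log2 fold changes of 0.44, 0.32, 0.24 and 0.27. BSG was lower at 72 h (-0.30), and NPTN at 24, 48 and 72 h (-0.29, -0.23 and -0.38). Of the 14 receptors and partners, 12 were tested, of which 5 were higher and 3 lower at 12 h, 5 and 3 at 24 h, 2 and 3 at 48 h, and 2 and 4 at 72 h. The shares of all tested genes at these times were 32.9% and 36.5%, 29.2% and 29.6%, 24.0% and 21.8%, and 30.6% and 31.0%. MCAM, another receptor of S100A8 and S100A9, was up by 1.02 at 12 h, and its differences of 0.05, 0.43 and 0.15 afterwards did not pass the test (adjusted p = 0.863, 0.115 and 0.59, edgeR).

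Among 14 transcription factors known from S100 promoters, 9 were higher and 4 lower at 12 h, 6 and 5 at 24 h, 3 and 5 at 48 h, and 7 and 5 at 72 h. Set beside these are 32.9% higher and 36.5% lower of all tested genes at 12 h, 29.2% and 29.6% at 24 h, 24.0% and 21.8% at 48 h, and 30.6% and 31.0% at 72 h. FOSL1, a subunit of AP-1, averaged 2.78 ± 0.736 CPM in CTR and 248 ± 20.9 after 12 h (SD, n = 4), a log2 fold change of 6.47, and was still higher at 24, 48 and 72 h (4.87, 3.19 and 5.06). JUNB was up by 1.77 at 12 h. CEBPA, a C/EBP factor of myeloid and epithelial cells, was lower at every time, by -1.67, -2.25, -1.53 and -2.30. GRHL3, a factor of epidermal barrier formation, was lower by -0.92, -1.98, -2.33 and -1.81, with its lowest point at 48 h. Whether any of these factors acted on the S100 genes was not tested.

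The genes most like each member over the 20 libraries were sought by Pearson's r of log2 CPM. The search covered 9033 genes of at least 10 CPM on average and left out the members themselves. These values describe 20 libraries that share 5 group means and carry no test. ANXA2 was the closest to S100A10 (r = 0.99), followed by SERPINB1 (0.99), an inhibitor of neutrophil proteases. S100A7A was the closest to S100A9 (0.95), before DDAH1 (0.89). KLK10 and ITGA3 were closest to S100A2 (0.96 and 0.97), and KLK5 and PDE4A to S100A6 (0.98 and 0.98). For S100A8 they were CD24 and the annexin gene ANXA6 (0.93 and 0.92), and MPHOSPH6 was the closest to S100A7 (0.95). KRT5, a basal keratin, and BCAP31 were closest to S100A14 (0.99 and 0.99), and TCOF1 and NR2C2AP to S100A16 (0.98 and 0.98). KIF21B and ENTPD6 were closest to S100A11 (0.99 and 0.99), and PHKA1 and ABCC5 to S100A4 (0.96 and 0.95). Between members, the highest r was 0.97 for S100A14 with S100A16, and the lowest was -0.91 for S100A4 with S100A8. It was 0.9275 for S100A8 with S100A9, lower than for S100A8 with CD24 (0.931) and for S100A9 with S100A7A (0.9518). The second-closest genes, ANXA6 for S100A8 (0.92) and DDAH1 for S100A9 (0.89), had lower values than the pair.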

How the data were processed

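RNA was extracted with the RNeasy Mini kit and libraries were made with the Lexogen Corall mRNA protocol. They were sequenced by the authors as 75 base single-end reads. The authors deposited whole-number counts per gene for 20 libraries, and these counts were identical in all 10 deposited tables. The labels name the build hg38 and DESeq2. The aligner, the annotation and the handling of molecular identifiers are not given in the sources used here. The deposited normalised values, treated as a score, served only an alternative, and the fold change and p-value columns of the authors' own comparisons were not used.

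edgeR 4.0.16 (R 4.3.3) was run on the counts with its default filter on low counts (16522 genes kept), TMM scaling and a quasi-likelihood test with robust dispersions. All 20 libraries were fitted with 1 mean per group. Benjamini-Hochberg adjustment covered all tested genes, at a threshold of 0.05. CPM values are TMM-scaled. The fit was tested on simulated data with known changes. The members and lists were chosen with earlier results of these data known. All members are reported. From the other lists, up to 4 genes are named with the largest change against CTR among those past the threshold with at least 1 CPM in the higher group and no overlap with CTR. Other genes named from the lists were chosen after their values were seen. For likeness, log2 CPM used a prior count of 2. Replicates are labelled as biological, and whether their cultures were started apart is not given in the sources used here. The p-values therefore measure the spread between these libraries. Replicates differed by 3.53 to 57.5 times the sampling noise over 30 pairs. Python 3.11.15 and scipy 1.17.1 made the exact permutation tests, and RefSeq and GENCODE 29 gave sequences and positions. Alternatives covered scaling, filters, DESeq2 1.42.0, the libraries fitted, the replicate block and each library left out. Some genes that the rules would name are not reported here.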

Additional observations from a re-analysis of the deposited data

Results flagged for a closer look

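Of 50 sets of 4 replicate values of the members, 1 held a value far from the others. S100A6 in EGF 72 h replicate 2 measured 1135 CPM, below the other replicates of that group at 1391, 1443 and 1433 CPM. By chance about 1 in 20 such sets is picked out.

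The change against CTR differed between successive times for 22 combinations of member and step, each by the test of the difference itself. S100A7 had the widest swings, with log2 differences of -0.51 from 12 to 24 h, -1.74 from 24 to 48 h and 1.19 from 48 to 72 h. S100A8 gave -1.10, -1.19 and 0.94 over the same steps, and S100A9 gave -0.67, -0.64 and 0.81. S100A10 gave -0.20, -0.92 and 0.29, and S100A11 gave -0.59 from 24 to 48 h and 0.31 from 48 to 72 h. S100A4 was the only member with a called increase from 24 to 48 h (0.35) and the only one with a called decrease from 48 to 72 h (-0.35). The first 2 steps gave -0.33 and -0.36 for S100A2, -0.61 and -0.63 for S100A14, and -0.66 and -0.29 for S100A16.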

How the results depend on the processing

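Against CTR, the counts of members called higher were the same under all settings tried at every time, and most single-library omissions changed nothing. Scaling by library size alone, under which the median of all genes at 12 h was -0.34 instead of -0.05, called 2 members lower at 12 h instead of 1, since S100A9 became -0.28 (adjusted p = 0.00144, edgeR). S100A9 at 12 h was also negative under upper quartile scaling (-0.15) and with at least 10 counts in every library (-0.026), and ranged from -0.030 to 0.049 with single libraries left out. S100A14 at 72 h lost its call with DESeq2 size factors (-0.15), no filter (-0.17), at least 10 counts in every library (-0.11) and only the 8 libraries compared (-0.16), and ranged from -0.20 to -0.13 with single libraries left out. S100A16 at 72 h was 0.026 with at least 10 counts in every library. With single libraries left out it ranged from -0.088 to 0.023 at 72 h and from -0.021 to 0.090 at 48 h, and S100A7 at 72 h ranged from -0.15 to 0.0036. The cause of these shifts was not tested.

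From 12 to 24 h, S100A2 lost its call under library size alone (-0.20), upper quartile (-0.22), at least 10 counts (-0.29) and gene-wise factors taken from the deposited normalised values (-0.35), the last an alternative chosen after seeing the data. From 24 to 48 h it did so under library size alone (-0.20), upper quartile (-0.29), no filter (-0.36), at least 10 counts (-0.32), only the 8 libraries (-0.34) and the gene-wise factors (-0.35). Left-out libraries gave -0.44 to -0.26 and -0.48 to -0.25 for these steps, and -0.18 to 0.0032 for 48 to 72 h. The rise of S100A4 from 12 to 24 h gained a call under library size alone (0.30), upper quartile (0.27), at least 10 counts (0.20) and only the 8 libraries (0.18), so 1 member instead of 0 was then higher, and its range with single libraries left out was 0.10 to 0.19, with 0 to 1 members higher. The same 4 settings each called 1 member higher from 12 to 72 h and 1 from 24 to 72 h instead of 0, the gene-wise factors called 1 from 24 to 72 h, and left-out libraries gave 0 to 1 there. S100A6 changed sign under library size alone from 12 to 24 h (0.0078). From 24 to 48 h it did so under library size alone (0.14), upper quartile (0.055), at least 10 counts (0.022) and the gene-wise factors (0.0019), with -0.092 to 0.065 when libraries were left out. S100A10 from 12 to 24 h lost its call under library size alone (-0.060) and upper quartile (-0.086). S100A11 from 12 to 24 h was 0.051 and 0.026 under these and was called with the gene-wise factors (-0.17). Library size alone also removed the call of S100A16 from 24 to 48 h (-0.14) and added one for S100A14 from 48 to 72 h (-0.20), where 2 members instead of 1 were then lower.

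Of the fused S100 genes, 1 was called at 12 h with at least 10 counts in every library or only the 8 libraries compared, 0 at 24 h under both, and 1 at 48 and at 72 h under the first, as that filter tests fewer genes. Left-out libraries gave 1 to 2 at 12 h. Only the 8 libraries compared called 6 annexins and 2 receptors or partners at 48 h. At least 10 counts left 3 of the latter, and left-out libraries gave 3 to 5. With at least 10 counts, 5 squamous markers were called at 24 h and 5 at 72 h. The order per length held 33 of 50 ranks with the longest transcript. Without mitochondrial genes in the total, the members took 0.648%, 1.09%, 1.04%, 0.796% and 0.898% of counts in CTR and after 12, 24, 48 and 72 h. The log2 ratio of S100A8 to S100A9 at 72 h against CTR was -1.66 from counts and -1.76 from normalised values.

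The deviations of 40 same-numbered pairs of libraries correlated between -0.24 and 0.35, with 5 of 40 over 0.1. Of the 20 libraries, 8 correlated best with their own number. These values do not settle whether replicate numbers paired the libraries. A replicate block changed no count of called members, which stayed at 8 higher at 12 h and 3 lower at 48 h. With counts of 47 to 70 in CTR libraries, S100A2 was the member with the lowest counts. The SE of its log2 fold change at 12 h was 0.154, beside 0.132 for S100A6, which had far more counts. The part of depth in this precision was not tested.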
